A study of Mus musculus with 77 samples.

Results

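The lineage transcription factors of striatal spiny projection neurons, 10 of the 18194 genes read by the array's single-symbol probe sets, were followed across every group of the series: Eya1, Ebf1, Isl1, Zfp521, Foxp1, Foxp2, Six3, Rarb, Bcl11b and Ikzf1. All probe sets annotated with 1 of these symbols and no other were taken, which gave 36 of the 34958 single-symbol probe sets and of the 45101 probe sets on the array. Of the 36, 30 had a mean over all arrays above the 40th percentile of probe set means, 3.55 on the log2 scale, and were tested, and all 10 genes kept at least 1. The other 6 were Eya1 1443117_at (mean 2.95), Ebf1 1457441_at (3.23), Foxp1 1438802_at (2.83) and 1443258_at (2.42), and Foxp2 1458191_at (2.71) and 1441365_at (2.26). The lowest mean among the tested probe sets was 4.48, for Zfp521 1439909_at. Each gene is described and counted by its brightest probe set, and other probe sets are named where they bear on a described call. The question was whether these factors keep the neurons' pathway identity through loss of dopamine and through levodopa treatment.

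The arrays measured messenger RNA captured on tagged ribosomes (translating ribosome affinity purification, TRAP) from the dorsal striatum of 77 single mice. Tagged ribosomal protein EGFP-L10a was carried by neurons of the direct pathway (dSPN, Drd1::EGFP-L10a line, 44 arrays) or of the indirect pathway (iSPN, Drd2::EGFP-L10a line, 33 arrays), in hemizygous male C57BL/6J mice aged 9 to 14 weeks. The toxin 6-OHDA (3.2 µg/µl), which kills dopamine neurons, or its vehicle (mock) was injected into the right medial forebrain bundle, lesioned mice were selected by behaviour, and the striatum of the injected side was taken. The groups were mock with saline (10 dSPN and 10 iSPN arrays), lesion with saline (11 and 7), lesion with low-dose levodopa (12 and 8) and lesion with high-dose levodopa (11 and 8). The low dose of levodopa was 1 mg/kg for days 1 to 3 and then 2 mg/kg through day 9, and the high dose was 3 and then 6 mg/kg over the same periods, each with 12 mg/kg benserazide, which blocks the conversion of levodopa outside the brain. The tag follows bacterial artificial chromosomes with Drd1 or Drd2 regulatory sequence, so cholinergic interneurons, which express Drd2, can carry it in the iSPN line. Each line was profiled from its own mice, and the numbers in the array titles fall into 7 stretches, each within 1 line. These stretches are called runs here; what they stand for is not given in the labels, and line and run cannot be told apart.

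Spiny projection neurons arise in the lateral ganglionic eminence and split into a direct pathway, which expresses Drd1, substance P and dynorphin, and an indirect pathway, which expresses Drd2 and enkephalin. Ebf1, Isl1 and Zfp521 are nuclear factors of the direct pathway lineage, with Isl1 holding down indirect pathway genes and Ebf1 acting in the maturation and wiring of direct pathway neurons. Six3 is a homeodomain factor needed for the birth of indirect pathway neurons, and Eya1 is a phosphatase and co-activator that works with relatives of Six3. Foxp1 and the zinc finger factor Bcl11b (Ctip2) are general factors of striatal neuron maturation, Rarb is a retinoic acid receptor of the striatum, Foxp2 is a forkhead factor tied to vocal and motor learning, and Ikzf1 (Ikaros) takes part in the making of enkephalin neurons.

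The values are log2 expression and ranged from 1.34 to 14.45, with array medians from 4.31 to 4.42. An array correlated with the others of its group at a median between 0.964 and 0.987. The labelled lines were borne out by their receptors: after the mock lesion Drd1 was higher in dSPN by 1.73 and Drd2 lower by 4.87 (difference -4.87) on the log2 scale. Of 9 tested markers of the direct pathway, 6 were higher in dSPN and 1 was lower, and all 10 tested iSPN markers were lower. Of 8 listed cholinergic markers 4 were tested (Lhx8, Slc18a3, Slc5a7 and Ecel1), and all 4 were lower in dSPN in every condition, with list means of 3.98 to 4.20 in dSPN groups and 5.26 to 5.66 in iSPN groups; Chat itself lay below the filter. The oligodendrocyte list, 13 of 15 tested, had means of 7.04, 7.30, 6.23 and 6.09 in dSPN (mock, lesion with saline, low dose, high dose) and 7.95, 7.78, 7.80 and 7.30 in iSPN. The astrocyte list, 12 of 15 tested, had means of 6.54, 6.81, 6.13 and 6.20 in dSPN and 7.06, 6.98, 6.88 and 6.82 in iSPN. These glial values move with the line and with levodopa, and their part in the results below was not settled. Where a fit with a list mean as a covariate is given, it used 1 slope per probe set for both lines. In such bulk captures, fewer cells of a type and less RNA per cell cannot be told apart.

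Eya1, Ebf1, Isl1 and Foxp2 marked the direct pathway in all 4 conditions. After the mock lesion, 6 of the 10 factors differed between the lines, 4 higher and 2 lower in dSPN, where 21.9% of all tested probe sets were called (12% higher and 9.99% lower; limma, adjusted p under 0.05). After the lesion with saline the count was 6 (5 higher, 1 lower; 21% of all probe sets), at low dose 7 (6 higher, 1 lower; 35.4%) and at high dose 9 (7 higher, 2 lower; 41.2%). The median difference over the 10 factors was 0.42, 0.94, 0.61 and 0.75 in these conditions, against 0.02, 0.02, 0.01 and -0.02 over all tested probe sets. Ranges of the lines did not overlap for 3, 5, 4 and 5 factors, where this held for 2.01%, 3.31%, 4.61% and 9.9% of all tested probe sets.

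**Figure D1:**
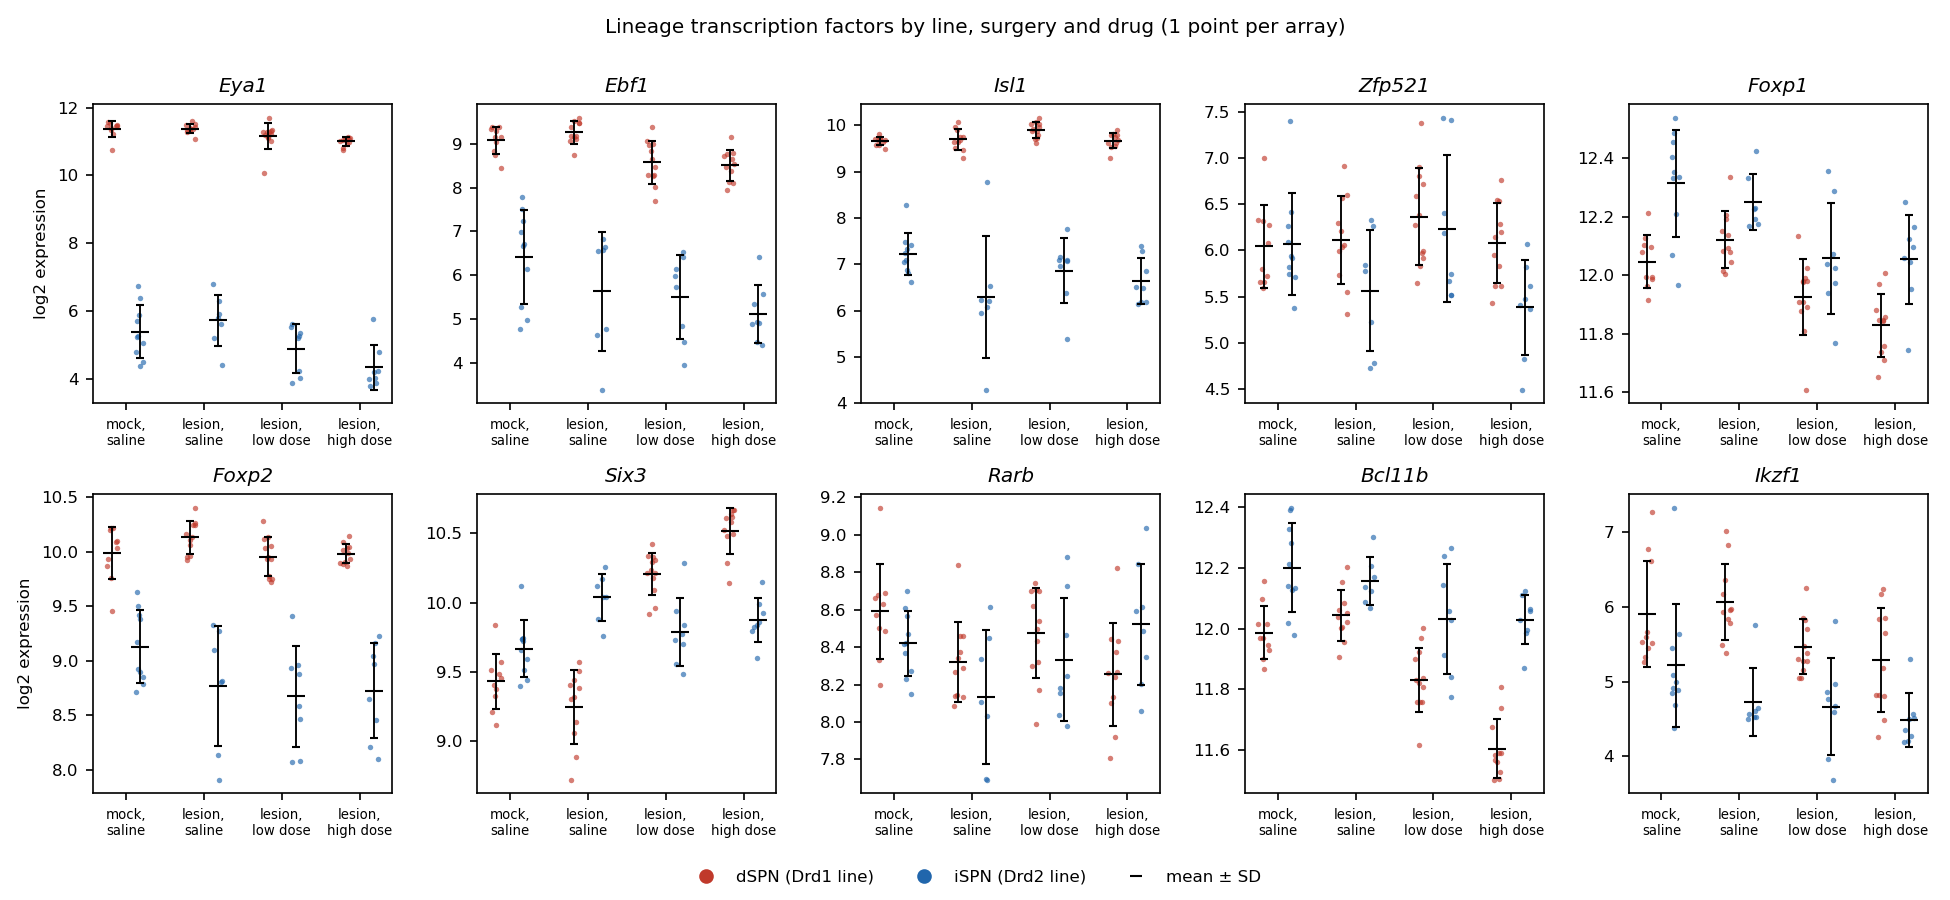
Log2 expression of the 10 factors, 1 panel per gene with its own scale, in the 8 groups (4 dSPN, 4 iSPN). Each point is 1 array from 1 mouse and bars give the mean ± SD; Eya1 and Isl1 are separated between the lines over all 77 arrays, and Six3 rises in dSPN with levodopa but not in iSPN.

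Eya1 had the widest gap between the lines among the 10. Its lowest, median and highest values in dSPN were 10.74, 11.45 and 11.56 after the mock lesion, 11.08, 11.37 and 11.61 after the lesion with saline, 10.07, 11.25 and 11.70 at low dose, and 10.75, 11.05 and 11.13 at high dose. In iSPN they were 4.39, 5.26 and 6.75, then 4.43, 5.81 and 6.79, then 3.88, 5.25 and 5.63, and 3.80, 4.13 and 5.79. The lowest of the 44 dSPN arrays, 10.07, stood far above the highest of the 33 iSPN arrays, 6.79. The dSPN minus iSPN difference was 5.96 (SE 0.23, adjusted p = 6.25e-35) after the mock lesion, a fold of 62.2. It was 5.65 (SE 0.24, adjusted p = 3e-31) after the lesion with saline, 6.26 (SE 0.23, adjusted p = 1.25e-35) at low dose and 6.66 (SE 0.23, adjusted p = 7.23e-37) at high dose. The second Eya1 probe set was likewise called higher in dSPN in every condition.

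Ebf1, a helix-loop-helix factor of the direct pathway lineage, was higher in dSPN in each condition with no overlap inside any condition. Its lowest, median and highest dSPN values were 8.45, 9.15 and 9.39 (mock), 8.74, 9.17 and 9.60 (lesion with saline), 7.70, 8.56 and 9.39 (low dose) and 7.94, 8.53 and 9.15 (high dose). In iSPN they were 4.77, 6.69 and 7.78, then 3.39, 6.56 and 6.84, then 3.96, 5.85 and 6.54, and 4.41, 4.91 and 6.42. Across conditions the lines touched, since the lowest dSPN array (7.70, low dose) lay under the highest iSPN array (7.78, mock). The difference was 2.67 (SE 0.32, adjusted p = 7.8e-10), 3.63 (SE 0.34, adjusted p = 1.16e-13), 3.07 (SE 0.33, adjusted p = 3.32e-12) and 3.40 (SE 0.33, adjusted p = 7.46e-14) in the same order. All 4 tested Ebf1 probe sets were called higher in dSPN in all 4 conditions, with mock differences from 1.72 to 2.67.

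Isl1, a LIM homeodomain factor, kept within a narrow range in dSPN and spread widely in iSPN. Its lowest, median and highest dSPN values were 9.50, 9.69 and 9.81 (mock), 9.30, 9.69 and 10.07 (lesion with saline), 9.63, 9.90 and 10.17 (low dose) and 9.31, 9.68 and 9.89 (high dose). In iSPN they were 6.62, 7.17 and 8.27, then 4.29, 6.20 and 8.78, then 5.39, 7.08 and 7.76, and 6.15, 6.50 and 7.40. All 44 dSPN arrays, the lowest at 9.30, lay above all 33 iSPN arrays, the highest at 8.78. The difference was 2.45 (SE 0.23, adjusted p = 1.24e-13) after the mock lesion, a fold of 5.45, and 3.41 (SE 0.25, adjusted p = 1.06e-18), 3.03 (SE 0.23, adjusted p = 9.87e-18) and 3.04 (SE 0.24, adjusted p = 8.46e-18) in the other conditions. Both Isl1 probe sets were called higher in dSPN in every condition. Cholinergic interneurons also express Isl1, and their tested markers were higher in the iSPN line, as given above; their part in its Isl1 values was not tested.

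Foxp2 showed a smaller gap in the same direction. Its dSPN medians were 10.06, 10.13, 9.94 and 9.98 (mock, lesion with saline, low dose, high dose), with single arrays from 9.46 to 10.40. Its iSPN medians were 9.05, 8.82, 8.73 and 8.81, with single arrays from 7.91 to 9.63. The lines overlapped after the mock lesion only, where the difference was 0.86 (SE 0.14, adjusted p = 2.53e-06). It was 1.37 (SE 0.15, adjusted p = 4.36e-11) after the lesion with saline, 1.28 (SE 0.14, adjusted p = 2.22e-11) at low dose and 1.25 (SE 0.15, adjusted p = 4.49e-11) at high dose. The calls for Eya1, Ebf1, Isl1 and Foxp2 held in each of the 10 alternative settings of every line comparison.

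**Figure D2:**
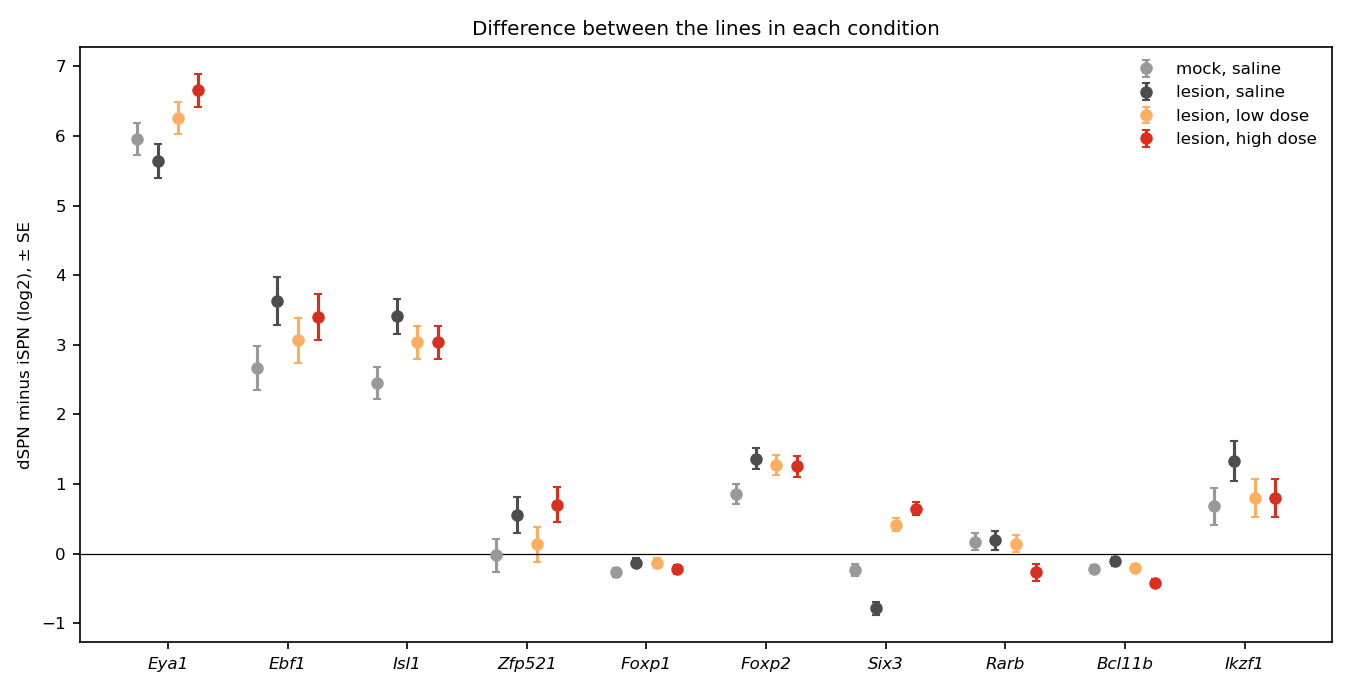
Difference in log2 expression between the lines (dSPN minus iSPN) for the 10 factors in the 4 conditions, with bars of ± 1 SE. Eya1, Ebf1, Isl1 and Foxp2 stay above 0 throughout, and Six3 passes from -0.79 after the lesion with saline to 0.42 at low dose and 0.65 at high dose.

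Zfp521, a zinc finger factor named with the direct pathway lineage, was not separated between the lines in these adult mice. Its medians were 5.93, 6.06, 6.33 and 6.14 in dSPN and 5.93, 5.78, 5.96 and 5.44 in iSPN, with overlapping ranges in every condition. The difference was -0.03 after the mock lesion (adjusted p = 0.956) and 0.55 (adjusted p = 0.128) and 0.13 (adjusted p = 0.716) after the lesion with saline and at low dose. At high dose it was 0.70 (SE 0.25, adjusted p = 0.0193) and was called, while the dimmer Zfp521 probe set 1439909_at was not (0.52, adjusted p = 0.11). Rarb was called in none of the 4 line comparisons, with differences from -0.27 to 0.19, and its medians ran from 8.11 to 8.60 over the 8 groups, and of the 4 comparisons only that at high dose had an unadjusted p under 0.05.

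Foxp1 and Bcl11b, which act in both pathways, were bright in every group, and where their brightest probe sets were called they were lower in dSPN. Foxp1 medians were 12.04, 12.09, 11.94 and 11.85 in dSPN and 12.35, 12.23, 12.03 and 12.08 in iSPN. Its difference was called after the mock lesion (-0.27, SE 0.06, adjusted p = 0.00121) and at high dose (-0.23, SE 0.07, adjusted p = 0.00454), and not after the lesion with saline (-0.13, adjusted p = 0.197) or at low dose (-0.13, adjusted p = 0.107). Foxp1 probe sets did not go one way: at high dose 1421142_s_at (0.41, adjusted p = 0.000771) and 1421141_a_at (0.28, adjusted p = 0.00844) were called higher in dSPN, while 1435221_at was lower (-0.33). At low dose the same pair was called higher (0.30 and 0.27) and 1435221_at lower (-0.23). Bcl11b medians were 11.97, 12.04, 11.83 and 11.58 in dSPN and 12.18, 12.14, 12.04 and 12.04 in iSPN. Its difference was -0.21 (adjusted p = 0.00292) after the mock lesion, -0.11 (adjusted p = 0.193) after the lesion with saline, -0.20 (adjusted p = 0.00374) at low dose and -0.43 (SE 0.06, adjusted p = 6.22e-09) at high dose, where the lines no longer overlapped. After the mock lesion 2 other Bcl11b probe sets, 1438784_at (0.14) and 1452966_at (0.04), were not called. At low dose these were not called either (-0.05 and -0.23). At high dose 1438784_at was not called (-0.14, adjusted p = 0.33), and the lines did not overlap for 1 of the 4 Bcl11b probe sets. With the oligodendrocyte list mean as a covariate the mock differences were -0.19 (adjusted p = 0.0778) for Foxp1 and -0.16 (adjusted p = 0.0999) for Bcl11b, and neither was called. With the same covariate Foxp1 at high dose was at -0.12 (adjusted p = 0.261) and Bcl11b at low dose at -0.10 (adjusted p = 0.397). With the astrocyte list mean these were -0.17 (adjusted p = 0.0758) and -0.14 (adjusted p = 0.133), so both calls were lost under either covariate.

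Ikzf1 was dim and higher in dSPN. Its medians were 5.57, 5.96, 5.34 and 5.18 in dSPN and 4.95, 4.57, 4.72 and 4.42 in iSPN, with overlap in every condition. The difference was 0.68 after the mock lesion (adjusted p = 0.0525) and 1.33 (SE 0.28, adjusted p = 0.000258), 0.80 (SE 0.27, adjusted p = 0.0146) and 0.79 (SE 0.27, adjusted p = 0.0149) in the lesion groups. A single iSPN mock array read 7.33 against 4.38 to 5.63 in the other 9. Without that array, and the dSPN array least like its group, the mock difference was 0.91 (adjusted p = 0.00415). The second Ikzf1 probe set, 1436312_at, was called higher in dSPN after the mock lesion over all arrays (1.41, adjusted p = 0.00145), and it was not called at low dose (0.69, adjusted p = 0.118) or high dose (0.60, adjusted p = 0.175). The low-dose and high-dose differences were not called with either glial list mean as a covariate, and the lesion-with-saline difference was called in every setting tried.

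Six3 was the factor whose order between the lines, by its brightest probe set, turned over. Its start-site window is shown beside that of Isl1, as the factor that moved most in dSPN and a direct pathway factor that did not pass the test there. Both are RefSeq windows of 300 bases in build GRCm38.p6, 250 before and 50 after the annotated start, printed 5′ to 3′ on the gene's strand: chr17:85620584-85620883 (plus strand) for Six3 and chr13:116309639-116309938 (minus strand) for Isl1. Capitals mark matches to the half-site of the cyclic AMP response element, TGACG or its reverse complement CGTCA.
Six3: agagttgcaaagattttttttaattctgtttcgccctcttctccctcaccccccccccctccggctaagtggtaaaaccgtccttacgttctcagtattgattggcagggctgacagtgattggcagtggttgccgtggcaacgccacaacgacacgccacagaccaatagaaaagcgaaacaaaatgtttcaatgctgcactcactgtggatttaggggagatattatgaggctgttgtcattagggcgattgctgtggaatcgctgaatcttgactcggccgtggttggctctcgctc
Isl1: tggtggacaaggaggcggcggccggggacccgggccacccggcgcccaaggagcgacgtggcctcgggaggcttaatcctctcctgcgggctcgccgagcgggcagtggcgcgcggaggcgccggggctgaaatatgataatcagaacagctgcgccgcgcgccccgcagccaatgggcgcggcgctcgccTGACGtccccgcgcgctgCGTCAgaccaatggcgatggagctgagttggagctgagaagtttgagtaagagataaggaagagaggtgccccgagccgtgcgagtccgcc
The Isl1 window held 2 half-sites and the Six3 window held none. Of 32851 windows of this length in the table, 20.8% held the half-site. The full element TGACGTCA, which contains the half-site, was in 1.79% of windows, the AP-1 site TGACTCA or TGAGTCA in 5.2%, the palindromic core motif of Ebf proteins in 0.904%, the forkhead site GTAAACA or TGTTTAC in 3.65% and the homeodomain core TAATTA in 5.29%, each searched on both strands. The Six3 window held none of these 6 motifs. Windows were found for 7 of the 10 factors, 11 windows in all: the half-site also occurred in 1 window each of Ebf1, Foxp1 and Ikzf1, the homeodomain core in 1 Foxp1 window, and no searched motif in those of Rarb and Bcl11b. A match describes letters in a window and is not evidence of binding.

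In dSPN, the lowest, median and highest Six3 values were 9.12, 9.43 and 9.84 after the mock lesion, 8.72, 9.32 and 9.57 after the lesion with saline, 9.92, 10.22 and 10.42 at low dose, and 10.14, 10.58 and 10.67 at high dose. In iSPN they were 9.40, 9.69 and 10.12, then 9.76, 10.04 and 10.25, then 9.48, 9.75 and 10.28, and 9.60, 9.85 and 10.15. Every levodopa array of the dSPN line lay above every saline array of that line, mock or lesioned, while the 4 iSPN groups overlapped each other. The dSPN minus iSPN difference was -0.23 after the mock lesion (SE 0.10, adjusted p = 0.0551) and -0.79 (SE 0.10, adjusted p = 2.47e-09) after the lesion with saline, with no overlap between the lines. At low dose it was 0.42 (SE 0.09, adjusted p = 0.000232) and at high dose 0.65 (SE 0.10, adjusted p = 4.61e-08), the opposite direction. With the oligodendrocyte list mean as a covariate the low-dose difference was 0.32 (adjusted p = 0.0778) and was not called.

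The other 2 Six3 probe sets moved the same way within dSPN, but neither was called in opposite directions between the lines. Probe set 1426637_a_at had dSPN means of 8.12 ± 0.27 (SD, n = 10), 7.90 ± 0.39 (n = 11), 8.88 ± 0.36 (n = 12) and 9.26 ± 0.46 (n = 11), and iSPN means of 8.55, 8.79, 8.69 and 8.78. Its line difference was -0.89 (adjusted p = 0.00241) after the lesion with saline, and at 0.20 (low dose) and 0.48 (high dose, adjusted p = 0.0713) it was not called in the opposite direction. Probe set 1426638_at was dim, with group means from 4.41 to 4.81, and showed no turn: its line difference was 0.08 after the mock lesion, 0.09 (adjusted p = 0.678) after the lesion with saline, 0.26 (adjusted p = 0.0853) at low dose and 0.35 (adjusted p = 0.0202) at high dose. Which transcripts each Six3 probe set reads was not analysed here.

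**Figure D3:**
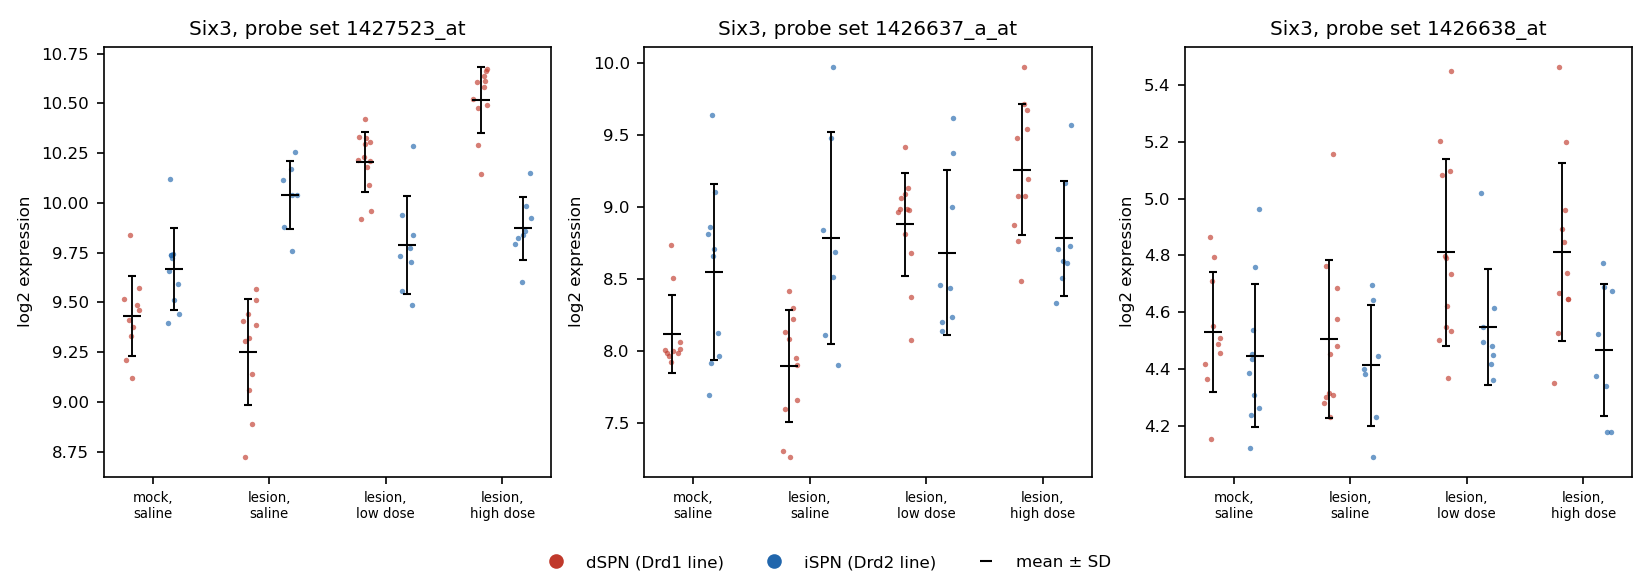
Log2 expression of the 3 Six3 probe sets in the 8 groups, 1 point per array, with mean ± SD. The 2 brighter probe sets are higher in dSPN at both levodopa doses than with saline and show no such rise in iSPN, and 1426638_at stays between group means of 4.41 and 4.81.

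Loss of dopamine alone left the factors of dSPN without a call. In the lesion minus mock comparison of dSPN, 0 of the 10 factors were called by limma, where 1.99% of all tested probe sets were, and 2 (Six3 and Rarb) had an unadjusted p under 0.05. Differences ran from -0.27 for Rarb to 0.18 for Ebf1. For the direct pathway factors the 95% confidence intervals were -0.42 to 0.46 for Eya1 (difference 0.02), -0.44 to 0.81 for Ebf1 (0.18), -0.41 to 0.48 for Isl1 (0.03) and -0.13 to 0.42 for Foxp2 (0.15). Changes inside these bounds are not excluded. The intervals rest on a spread pooled over both lines, and Isl1 spread more widely in iSPN than in dSPN. With dSPN arrays alone, an Isl1 difference of 0.20 was called by limma at low dose (SE 0.07, adjusted p = 0.031). Six3 differed by -0.18 (adjusted p = 0.417). Within the 1 run that held both groups (5 lesion and 4 mock arrays), Six3 differed by -0.22, and no factor was called there either.

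In iSPN the lesion was followed by a fall of Isl1 and a rise of Six3, and 2 of 10 factors were called, where 5.39% of all tested probe sets were. Isl1 fell by 0.93 on the log2 scale (SE 0.25, adjusted p = 0.0161), from a median of 7.17 to 6.20, with overlapping groups since single lesion arrays spread from 4.29 to 8.78. The second Isl1 probe set differed by -0.59 (adjusted p = 0.234). Six3 rose by 0.37 (SE 0.10, adjusted p = 0.0158), and its other 2 probe sets, at 0.24 and -0.03, were not called. Several further probe sets of direct pathway factors fell in iSPN although the brightest one of the gene did not pass the test. Eya1 1457424_at fell (-1.33, adjusted p = 0.0023) while the main Eya1 probe set differed by 0.33 and was not called. Ebf1 1416302_at (-1.38, adjusted p = 0.00136) and 1448293_at (-0.99, adjusted p = 0.0148) fell, with the main one at -0.78 (adjusted p = 0.213). Foxp2 1440108_at (-0.58, adjusted p = 0.0134) and, just inside the threshold, 1438231_at (-0.42) fell too, with the main one at -0.36 (adjusted p = 0.18). Over the 30 tested probe sets of the factors, 7 were called in this comparison, 1 higher and 6 lower.

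Markers of the direct pathway moved with these values. In iSPN after the lesion, 4 of the 9 tested dSPN markers fell, Wnt2 by 1.35, Pdyn by 0.99, Drd1 by 0.47 and Tac1 by 0.42, and the list mean went from 7.32 to 6.80. Over all tested probe sets 2.45% were called lower there. The fall was not particular to that list, since the iSPN marker list mean went from 9.80 to 9.51. The cholinergic list mean went from 5.26 to 5.62. Whether the signal of direct pathway genes in the iSPN line comes from dSPN messenger RNA was not tested. The 2 iSPN calls depended on the fit: with run as a fixed block Isl1 differed by -0.79 (adjusted p = 0.581) and Six3 by 0.46 (adjusted p = 0.239), and with iSPN arrays alone the adjusted p was 0.229 and 0.0585. No run held at least 2 arrays of each of these groups, so no value within a run could be had.

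High-dose levodopa was followed by a rise of Six3 and by falls of Bcl11b, Foxp1, Ebf1 and Ikzf1 in dSPN. Thus 5 of the 10 factors were called, 1 higher and 4 lower, in a comparison in which 44.9% of all tested probe sets were called, 20.2% higher and 24.7% lower, so the count itself is near the background. Six3 rose by 1.27 (SE 0.09, adjusted p = 6.46e-21), a fold of 2.41, and Bcl11b fell by 0.44 (SE 0.05, adjusted p = 1.05e-10), a fold of 1.36. By the brightest probe sets these were the 2 factors whose groups did not overlap, where this held for 10.4% of all tested probe sets. Over all their tested probe sets, the groups did not overlap for 2 of 3 of Six3, 1 of 4 of Bcl11b and 2 of 6 of Foxp1. Bcl11b lay between 11.91 and 12.20 with saline and between 11.50 and 11.81 at high dose. Its other 3 probe sets fell as well (-0.44, -0.58 and -0.50).

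Foxp1 fell by 0.29 (SE 0.06, adjusted p = 5.34e-05), with arrays at 12.01 to 12.34 with saline and 11.65 to 12.01 at high dose. Of its other 5 probe sets, 1455242_at (-0.32), 1421140_a_at (-0.20) and 1435221_at (-0.67) fell, and 1421142_s_at (0.10) and 1421141_a_at (-0.10) were not called. Ebf1 fell by 0.75 (SE 0.30, adjusted p = 0.0377) and Ikzf1 by 0.78 (SE 0.25, adjusted p = 0.00798), both with overlapping groups. Eya1 at -0.38 (adjusted p = 0.151, 95% confidence interval -0.81 to 0.05), Isl1 at -0.03 (-0.46 to 0.41), Foxp2 at -0.15, Rarb at -0.07 and Zfp521 at -0.03 were not called. Another Foxp2 probe set, 1422014_at, fell (-0.37, adjusted p = 0.0421), and of the Ebf1 probe sets 1416302_at was not called (-0.56, adjusted p = 0.0706).

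Markers of glia and of the neurons themselves moved in the same arrays. Of the tested neuronal markers in dSPN at high dose, 2 of 9 for dSPN rose and 6 fell (list mean 8.81 with saline and 8.42 at high dose), and 1 of 10 for iSPN rose and 8 fell (7.02 and 6.35). Of the 14 shared spiny neuron markers 3 rose and 8 fell, and their list mean went from 11.31 to 11.19 with no overlap between the groups. The part of these shifts in the factors' changes was not tested. In dSPN at high dose, 12 of 13 oligodendrocyte markers and 6 of 12 astrocyte markers fell, where 24.7% of all tested probe sets were called lower. The oligodendrocyte list mean ran from 6.85 to 8.15 in the lesion-with-saline arrays and from 5.58 to 6.83 at high dose, with no overlap. With that mean as a covariate Six3 still rose by 1.19 and Bcl11b fell by 0.37 (adjusted p = 1.38e-05), while Foxp1 was at -0.19 (adjusted p = 0.0522) and Ebf1 at -0.11 (adjusted p = 0.861). With the astrocyte mean, Six3 rose by 1.20, Bcl11b fell by 0.39 and Ebf1 was at -0.46 (adjusted p = 0.314). Isl1 went from -0.03 to 0.71 (adjusted p = 0.026) with the oligodendrocyte covariate. Each covariate fit used 1 slope per probe set, shared by both lines, and Isl1 spread from 4.29 to 8.78 in iSPN against 9.30 to 10.17 in dSPN. Since the oligodendrocyte mean did not overlap between these dSPN groups, values adjusted for it are extrapolations. They cannot separate a glial part from a change with levodopa.

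A single run held 9 high-dose and 6 saline arrays of lesioned dSPN. Within it Six3 rose by 1.12 (adjusted p = 3.5e-07), Bcl11b fell by 0.43 (adjusted p = 0.000292), Foxp1 by 0.30 (adjusted p = 0.00797), Ebf1 by 0.78 (adjusted p = 0.000513) and Ikzf1 by 0.91 (adjusted p = 0.025). Eya1, not called over all arrays, fell by 0.39 in that run (adjusted p = 0.00442), and it was also called with dSPN arrays alone (-0.38, adjusted p = 0.00326). With run as a fixed block over all arrays, Ebf1 was at -0.72 (adjusted p = 0.09) and was not called.

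**Figure D4:**
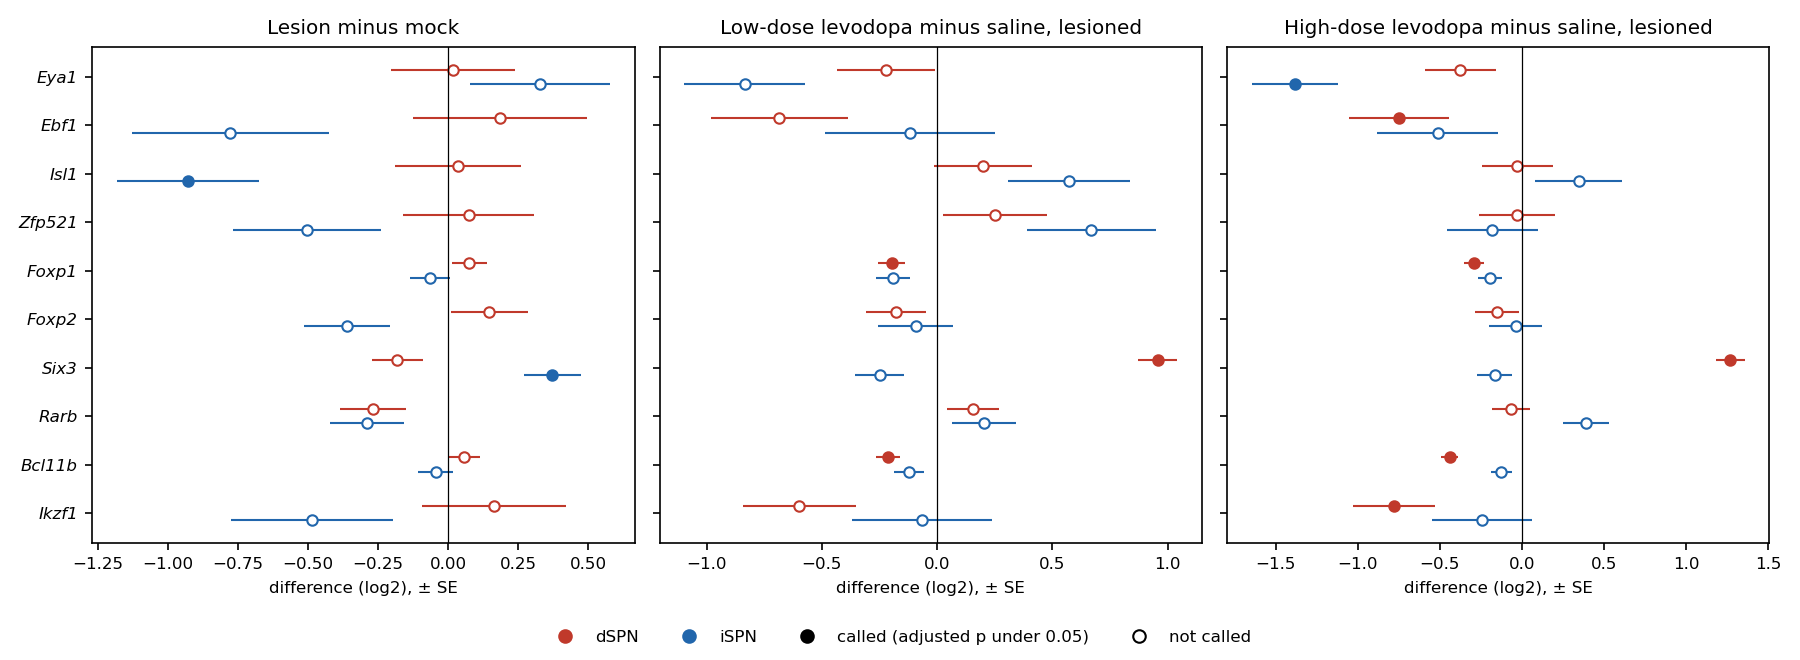
Change in log2 expression of the 10 factors within each line, ± 1 SE, for lesion minus mock, low dose minus saline and high dose minus saline. Filled points passed the test (adjusted p under 0.05); Six3 in dSPN stands at 0.96 and 1.27 with the 2 doses, and Eya1 in iSPN at -1.38 with the high dose.

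The low dose gave a like picture in dSPN. Of the 10 factors 3 were called, against 33.4% of all tested probe sets, so the count itself is near the background. Six3 rose by 0.96 (SE 0.09, adjusted p = 2.7e-15), a fold of 1.94, Bcl11b fell by 0.21 (SE 0.05, adjusted p = 0.000819) and Foxp1 fell by 0.20 (SE 0.06, adjusted p = 0.00736). By the brightest probe sets Six3 was the 1 factor without overlap (4.56% of all tested probe sets). Other probe sets of Bcl11b (1438784_at, -0.24, and 1450339_a_at, -0.18) and of Foxp1 (1421140_a_at, -0.10, 1421142_s_at, 0.14, and 1421141_a_at, 0.01) were not called, while Bcl11b 1452966_at (-0.34) and Foxp1 1455242_at (-0.17) and 1435221_at (-0.47, with no overlap) fell. Ebf1 at -0.68 (adjusted p = 0.0678) and Ikzf1 at -0.60 (adjusted p = 0.0511) were not called. With dSPN arrays alone both were called (adjusted p = 0.000342 for Ebf1 and 0.0403 for Ikzf1). Another Ebf1 probe set, 1439789_at, fell by 0.89 (adjusted p = 0.000708) with no overlap between the groups. Of the 13 oligodendrocyte markers 11 fell here too, and with their mean as a covariate Six3 rose by 0.89, while Bcl11b (-0.15, adjusted p = 0.0936) and Foxp1 (-0.11, adjusted p = 0.319) were not called. Isl1, at 0.20 (adjusted p = 0.517) without a covariate, was at 0.84 (adjusted p = 0.00613) with the oligodendrocyte mean and at 0.73 (adjusted p = 0.0143) with the astrocyte mean. These fits too shared 1 slope between the lines. With dSPN arrays alone and no covariate Isl1 was also called (0.20, adjusted p = 0.031). No run held both groups; with run as a fixed block Six3 rose by 0.85 (adjusted p = 2.74e-06), and Bcl11b (-0.19, adjusted p = 0.152) and Foxp1 (-0.21, adjusted p = 0.17) were not called. The low-dose and high-dose comparisons share the same saline arrays, so their values are not independent of each other.

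The 2 doses differed directly for Six3 and Bcl11b. Six3 was higher at high dose by 0.31 (SE 0.09, adjusted p = 0.0151) and Bcl11b lower by 0.23 (difference -0.23, SE 0.05, adjusted p = 0.00296), 2 of 10 factors where 5.89% of all tested probe sets were called. In the run that held 2 high-dose and 11 low-dose arrays the differences were 0.42 (adjusted p = 0.26) and -0.29 (adjusted p = 0.368), and with run as a fixed block 0.32 (adjusted p = 0.276) and -0.26 (adjusted p = 0.114). The calls were not kept in either setting. The other 2 Six3 probe sets (0.38, adjusted p = 0.283, and 0.00, adjusted p = 0.997) were not called between the doses.

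The remaining Six3 probe sets give the same direction in dSPN. Probe set 1426637_a_at rose by 1.37 (SE 0.20, adjusted p = 3.18e-08) at high dose and 0.99 (SE 0.20, adjusted p = 4.06e-05) at low dose, and the dim 1426638_at by 0.31 at each dose (adjusted p = 0.0267 and 0.022). The main Six3 probe set was called at high dose in all 13 alternative settings, from 1.12 to 1.30, and at low dose in all 12, from 0.85 to 1.01. Bcl11b at high dose was called in all 13, from -0.52 to -0.37.

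In iSPN the count of factors called with levodopa, by their brightest probe sets, was near the background. At high dose 1 of 10 was called, against 8.71% of all tested probe sets: Eya1 fell by 1.38 (SE 0.26, adjusted p = 0.000142), a fold of 2.61, from a median of 5.81 to 4.13 in a line where it is already low. Of all 30 tested probe sets of the factors, 7 were called at high dose, each lower. The second Eya1 probe set differed by -0.32 and was not called. Six3 was at -0.17 (adjusted p = 0.368), Foxp1 at -0.20 (adjusted p = 0.0871) and Rarb at 0.39 (adjusted p = 0.0637). Other probe sets were called where the main one was not: Ebf1 1439789_at (-1.04) and 1448293_at (-1.03), and 4 further Foxp1 probe sets (-0.27 to -0.48). In the run with 8 high-dose and 2 saline arrays Eya1 differed by -1.63 (adjusted p = 0.186), with run as a fixed block by -1.20 (adjusted p = 0.0834), and with the oligodendrocyte mean as a covariate it fell by 1.22 (adjusted p = 0.00121).

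At low dose 0 of 10 factors were called in iSPN by limma, where 3.77% of all tested probe sets were, and 5 (Eya1, Isl1, Zfp521, Foxp1 and Six3) had an unadjusted p under 0.05. Eya1 was at -0.84 (adjusted p = 0.0534), and over 4 of the alternative settings it was called, with an adjusted p from 0.0377 to 0.0498. Of the other Foxp1 probe sets 3 fell (-0.25, -0.25 and -0.39) and Isl1 1422720_at rose (0.97, adjusted p = 0.0397). Between the doses 0 of 10 were called in iSPN by limma, against 0.121% of all tested probe sets, with 2 (Eya1 and Zfp521) at an unadjusted p under 0.05. The dimmer Zfp521 probe set 1439909_at was lower at high than at low dose (-1.26, adjusted p = 0.0345).

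The difference between the lines in each response was tested as an interaction. For the lesion 1 of 10 factors was called, against 4.13% of all tested probe sets: Six3, whose lesion response was lower in dSPN than in iSPN by 0.55 (interaction -0.55, SE 0.13, adjusted p = 0.00628). With run as a fixed block it was -0.60 (adjusted p = 0.15). Isl1 had an interaction of 0.96 (adjusted p = 0.0936) and Ebf1 of 0.96 (adjusted p = 0.296), neither called. Other probe sets of direct pathway factors were called for the lesion: Ebf1 1416302_at (1.46, adjusted p = 0.0175), and Eya1 1457424_at (1.31, adjusted p = 0.042), whose main probe set was at -0.31. The other 2 Six3 probe sets were not called for the lesion (-0.46 and 0.01). For the high dose 3 were called, against 23.3%: Six3 (1.43, SE 0.14, adjusted p = 1.27e-13), Eya1 (1.01, SE 0.34, adjusted p = 0.0219) and Bcl11b (-0.31, SE 0.08, adjusted p = 0.00327). For the low dose Six3 alone was called (1.21, SE 0.14, adjusted p = 1.3e-10), against 13.5%. Under the fixed block the Eya1 interaction at high dose was 0.79 (adjusted p = 0.256), and the second Eya1 probe set was at 0.14 (adjusted p = 0.845). The dim Six3 probe set 1426638_at was called at neither dose (0.25 at high dose and 0.17 at low dose). Of the other Bcl11b probe sets, 1438784_at (-0.19, adjusted p = 0.454) and 1450339_a_at (-0.35, adjusted p = 0.0786) were not called at high dose. Of the Foxp1 probe sets, 1421142_s_at (0.42, adjusted p = 0.0329) and 1421141_a_at (0.34, adjusted p = 0.0484) were called at high dose, while the main one was at -0.10.

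Paralogues of the factors were read from a list of 21 genes, of which 13 were tested. After the mock lesion 1 was higher in dSPN (Foxp4, 1.05) and 5 lower, among them the Zfp521 relative Zfp423 (-1.22), Ikzf2 (-0.91) and the retinoic acid receptor Rarg (-0.75). In that comparison 12% of all tested probe sets were called higher and 9.99% lower. None was called in dSPN after the lesion by limma (2 at an unadjusted p under 0.05). At high dose in dSPN 1 rose and 5 fell, 6 of 13 where 44.9% of all tested probe sets were called, so the count is near the background. Rara rose by 1.12 (adjusted p = 2.89e-08), while Rarg fell by 1.64 (adjusted p = 1.82e-07), Ikzf4 by 1.00 (adjusted p = 4.14e-11) and Foxp4 by 0.77. At low dose Rara rose by 0.77, and Rarg fell by 1.02 and Ikzf4 by 0.67. Thus the 2 relatives of Rarb moved in opposite directions while Rarb, at -0.07, was not called. In iSPN no paralogue was called in any of the 4 comparisons (2 after the lesion, 3 at high dose, 0 at low dose and 1 between doses at an unadjusted p under 0.05).

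A second list held 22 other transcription factors of striatal projection neuron development, of which 17 were tested. After the mock lesion the homeodomain factor Dlx6 was higher in dSPN (0.67) and 4 were lower, among them Meis1 (-1.49), Zfhx3 (-0.99) and Meis2 (-0.32). The shares over all tested probe sets were 12% higher and 9.99% lower. At high dose in dSPN 2 rose and 7 fell, 9 of 17 against the same 44.9%. Among them were Zfp503 (Nolz1), which fell by 0.91 (adjusted p = 0.00183), the retinoid partner Rxra, which fell by 0.87, and Zfhx3 and Meis2, which fell by 0.51 and 0.44. In iSPN Zfp503 fell by 1.44 after the lesion (adjusted p = 0.000526), and it was higher at high dose than with saline by 1.27 (adjusted p = 0.00325), 2 comparisons that share the lesion-with-saline arrays. The difference between the lines was called for Zfp503 in both the lesion response (1.43, adjusted p = 0.0166) and the high-dose response (-2.19, adjusted p = 1.12e-05). Dlx5 rose in iSPN at both doses, by 0.50 and 0.47. No member of this list was called in dSPN after the lesion by limma (2 at an unadjusted p under 0.05).

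The genes whose 8 group means followed each factor most closely were also looked up among 13271 tested genes, as a description over points that share the line difference. For Ebf1 they were Drd1 (Pearson r = 0.999) and Foxp2 (0.992), and for Foxp2 they were Ebf1 (0.992) and Psme1 (0.991). Eya1 was nearest to Sfxn1 (0.994) and Nol7 (0.993), and Isl1 to Nol7 (0.987) and Stxbp5l (0.987). Six3 was nearest to Mxd3 (0.981) and Pfdn5 (0.98), Foxp1 to Ctnna2 (0.989), Bcl11b to Sin3a (0.991) and Ikzf1 to Elk1 (0.989). Rarb (Camta2, 0.943) and Zfp521 (Eif2ak4, 0.922) had the loosest nearest genes. Each nearest gene was picked as the highest of many correlations over 8 points, so high values arise by selection. Over the 77 single arrays r ran from 0.19 (Zfp521 with Eif2ak4) to 0.97 (Eya1 with Sfxn1). It was 0.36 for Rarb with Camta2 and 0.92 for Ebf1 with Drd1.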

How the data were processed

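Messenger RNA from TRAP captures of 77 single mice was measured on Affymetrix mouse arrays. The deposited table holds log2 expression per probe set; RMA and the affy package were used by the authors, per the submitters' processing notes, and their versions and settings are not given in the sources used here. Neither scanner files nor detection calls were used, so whether dim probe sets stood above background was not assessed. The number of arrays limits the precision.

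Probe sets with several symbols (932) or none (9211) were left out, and 23974 single-symbol probe sets with a mean above the 40th percentile were tested. Arrays were grouped by line, surgery and drug from the labels. Group means of all 77 arrays were fitted with limma 3.58.1 in R 4.3.3 (8 groups, 69 residual degrees of freedom, two-sided moderated test). P-values were adjusted by the Benjamini-Hochberg method over all tested probe sets of a comparison, and a probe set was called at an adjusted p under 0.05; 15 comparisons were fitted. A gene with several probe sets is described by the brightest one on average. The text names all 10 members, up to 4 called genes per list and comparison, and the 2 genes nearest to each member over group means. The fit was checked on simulated data.

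Array titles fall into 7 stretches of rising animal numbers, each within 1 line, called runs here; what they stand for is not given in the labels. Run was not in the model. Alternatives were run as a fixed or random block, arrays of 1 line or 1 run, array weights, no filter, 1 probe set a gene, a trended robust variance prior, equal array medians, quantile normalization, oligodendrocyte or astrocyte list means as covariates, and leaving out the least typical array of each line. The members, gene lists and tests were chosen with earlier results of these data known. Promoter windows are RefSeq's (GRCm38.p6), and the probe sets' gene names are those of the platform annotation, with all 10 members matched by Entrez identifier.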

Additional observations from a re-analysis of the deposited data

Results flagged for a closer look

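A test for a single array far from the others of its group, which chance meets in about 5% of groups, was met in 9 of 50 pairs of a factor and a group of up to 10 arrays. In the dSPN mock group these were Eya1 at 10.74 and Zfp521 at 7.00 in replicate 1, and Rarb at 9.15 in replicate 9. In the iSPN mock group, replicate 3 stood apart for Isl1 (8.27), Zfp521 (7.40) and Ikzf1 (7.33), and replicate 10 for Six3 (10.12). For Ikzf1, replicate 4 of the iSPN lesion-with-saline group was at 5.76 and replicate 6 of the iSPN high-dose group at 5.31. The iSPN mock replicate 3 was also the iSPN array least like its group (median correlation 0.964), and its oligodendrocyte list mean was 8.59 against 7.29 to 8.52 in the other 9.

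Responses that differed between the lines by the interaction test were those of Six3 to the lesion (-0.55), to the low dose (1.21) and to the high dose (1.43), and those of Eya1 (1.01) and Bcl11b (-0.31) to the high dose. With run as a fixed block, the limma interactions of Six3 with the lesion (-0.60, adjusted p = 0.15) and of Eya1 (0.79, adjusted p = 0.256) were not called. Not every probe set of these 3 genes was called, as given above.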

How the results depend on the processing

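No paired analysis was possible because the labels give no replicate numbers shared between groups. Of 174 recomputed counts of called factors, 154 stayed within 1.5 times the reported count. Of 46 called values of single factors, 28 were called in every setting. Among 1740 recomputed values, each of 1 factor in 1 comparison and setting, 35 lost and 39 gained a call with the direction kept. A further 1 was called in the reverse direction. With run as a fixed block, the counts were 1 instead of 3 for low dose in dSPN, and 0 instead of 2 between doses in dSPN, 0 instead of 2 for the lesion in iSPN, 0 instead of 1 for high dose in iSPN and 0 instead of 1 for the lesion interaction. With run as a random block (consensus correlation -0.02) they were 5 for low dose in dSPN and 2 for high dose in iSPN. With arrays of 1 line they were 6 for low dose in dSPN and 0 for the lesion in iSPN. Array weights gave 5 for low dose in dSPN, 1 for the lesion in iSPN and 2 for the lesion interaction. Arrays of 1 run gave 0 between doses in dSPN and 0 for high dose in iSPN, with fewer samples. Quantile normalization gave 2 for high dose in iSPN. For low dose in iSPN (0 reported), 1 factor was called with 1 probe set a gene, a trended prior, quantile normalization or the oligodendrocyte covariate. With that covariate 4 instead of 7 factors differed between the lines at low dose, and Isl1 at high dose in dSPN turned from -0.03 to 0.71 (adjusted p = 0.026). The causes were not tested. With equal array medians, 60% of called probe sets of the low-dose interaction were higher against 49.8% reported, and 55.6% against 45.6% for low dose in dSPN. Run as a fixed block could not be fitted to comparisons between the lines, since each run lies within 1 line. The random block was fitted to them. In iSPN, Isl1 (4.29 to 8.78) and Ebf1 (3.39 to 7.78) had the widest ranges of the 10 factors over all arrays, which limits what their iSPN comparisons can show.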
